A study of Mus musculus with 5 samples.

Results

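The transcripts described here are those of 10 genes of the choroid plexus epithelium, measured by RNA-seq in 5 libraries of mouse hippocampus. The members were chosen by symbol from a list of genes known for that epithelium, and all 10 (*Ttr*, *Kl*, *Folr1*, *Clic6*, *Kcnj13*, *Prlr*, *Calml4*, *Slc4a5*, *Otx2* and *Aqp1*) were found among the 23361 gene symbols of each library. That choice was made with earlier results of these data known. The mice were 3 months old, and the study used males. The control group (n = 2), titled WT, has *Hdac1*f/f as its genotype label, the gene flanked by sites for Cre recombinase and left intact. The *Hdac1* cKO group (n = 3) carried the same floxed allele together with *Nestin-Cre*, a transgene that deletes *Hdac1* in neurons and astrocytes but not in microglia. *Hdac1* encodes histone deacetylase 1. Whether the epithelium of the choroid plexus carries the deletion is not given in the sources used here. The labels number the libraries without naming animals, so p-values measure only the spread between these libraries.

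The choroid plexus is a fringe of epithelium that hangs in the brain ventricles, one of which lies directly against the hippocampus. Its cells secrete the cerebrospinal fluid by moving ions, bicarbonate and water across their apical membrane, and they release carrier proteins such as transthyretin into that fluid. Transthyretin, the product of *Ttr*, carries thyroid hormone, and its transcript is among the most abundant of that epithelium while neurons of the hippocampus hold very little of it. Several of the other members are also used outside the epithelium. *Kl* (klotho), for example, is known from the kidney and from neurons.

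Of the 10 genes, 7 have an entry in the RefSeq promoter table (GRCm38.p6), and *Ttr*, *Folr1* and *Clic6* have none there. Coordinates of promoters are in that build and all others are in mm9. The 250 bases before the start are shown for 5 genes that differ in how they varied with *Ttr*. *Slc4a5* and *Aqp1* held the same library order as *Ttr*, *Kcnj13* was high in 1 library, and *Calml4* and *Kl* kept a measurable level in the library with least *Ttr*. Capitals mark GGGCGG or its reverse complement CCGCCC, the core of the guanine-rich box read by SP and KLF factors, a class of motif that the study examined in promoters of aged mice. No base of *Kcnj13* is in capitals because neither string occurs in its window.
*Slc4a5* (chr6:83237125-83237374, plus strand): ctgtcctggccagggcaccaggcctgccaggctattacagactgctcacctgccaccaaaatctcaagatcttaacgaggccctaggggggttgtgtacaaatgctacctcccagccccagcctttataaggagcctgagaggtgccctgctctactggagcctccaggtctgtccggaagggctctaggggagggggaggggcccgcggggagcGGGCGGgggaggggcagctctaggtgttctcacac
*Aqp1* (chr6:55336049-55336298, plus strand): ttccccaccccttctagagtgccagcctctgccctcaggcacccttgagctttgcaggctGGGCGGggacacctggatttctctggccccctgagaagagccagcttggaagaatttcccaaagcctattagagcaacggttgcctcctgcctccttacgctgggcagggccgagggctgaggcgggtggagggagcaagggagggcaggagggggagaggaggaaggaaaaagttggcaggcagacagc
*Kcnj13* (chr1:87394730-87394979, minus strand): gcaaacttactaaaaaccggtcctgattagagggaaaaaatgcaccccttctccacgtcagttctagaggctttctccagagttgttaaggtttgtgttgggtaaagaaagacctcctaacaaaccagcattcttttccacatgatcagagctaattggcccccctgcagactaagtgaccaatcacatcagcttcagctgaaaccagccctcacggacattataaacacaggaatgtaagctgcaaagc
*Calml4* (chr9:62857854-62858103, plus strand): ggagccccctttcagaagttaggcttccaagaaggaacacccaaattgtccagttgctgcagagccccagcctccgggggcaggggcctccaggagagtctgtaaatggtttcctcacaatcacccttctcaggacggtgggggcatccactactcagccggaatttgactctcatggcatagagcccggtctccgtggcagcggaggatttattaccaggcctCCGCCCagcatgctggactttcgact
*Kl* (chr5:150952357-150952606, plus strand): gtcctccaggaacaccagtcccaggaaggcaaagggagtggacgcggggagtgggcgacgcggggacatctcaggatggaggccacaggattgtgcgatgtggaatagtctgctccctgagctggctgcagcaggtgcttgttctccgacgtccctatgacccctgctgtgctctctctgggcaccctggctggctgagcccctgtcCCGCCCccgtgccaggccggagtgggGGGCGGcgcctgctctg

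The box was present upstream of 4 of the 7 genes, namely *Kl*, *Slc4a5*, *Aqp1* and *Calml4*. It was absent from the windows of *Kcnj13*, *Otx2* and *Prlr*. Of all 27025 genes with an entry, 35.4% hold it in at least 1 window of this length. Counting −1 as the base just before the start site, *Kl* had copies at −43 and −17, *Slc4a5* at −35 and *Calml4* at −26. The copy of *Aqp1* was farther away, at −190. Both strings were searched, and thereby both strands. A second string, TAATCC or its reverse complement GGATTA, the core read by OTX homeodomain proteins, was found upstream of 1 of the 7 genes, *Otx2* itself, against 7.21% of all genes. These matches describe letters in the windows and not sites of binding. They did not separate the genes that held the library order of *Ttr* from those that did not, since *Kl* and *Calml4* share the box with *Slc4a5* and *Aqp1*.

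The libraries carried the markers of the labelled tissue. *Snap25*, a synaptic gene, was at 749 to 903 FPKM, and *Slc17a7*, the vesicular glutamate transporter of pyramidal and granule cells, at 300 to 424 FPKM. FPKM counts fragments, scaled to the length of the transcript and to the mapped fragments of the library. The estimated depth was 5140000 to 6770000 fragments per library, lowest in cKO 2. FPKM values of *Hdac1* itself were 8.95 and 13.1 in control 1 and 2 and 1.95, 3.12 and 3.37 in cKO 1 to 3, with no overlap between groups (log2 fold change −1.66, adjusted p = 0.219 by limma). The libraries also form sets that cross the genotypes, recognised from ratios of low values that recur between libraries. Control 1 and cKO 1 form the first set, and control 2, cKO 2 and cKO 3 the second.

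*Ttr* was measured at 157 FPKM in control 1 and 1.33 FPKM in control 2, and at 67.9, 589 and 20.7 FPKM in cKO 1, 2 and 3. No 2 libraries were alike, and the lowest and the highest differed 443-fold. From high to low the order was cKO 2, control 1, cKO 1, cKO 3 and control 2, so the genotypes were interleaved along it. Control 1 held 26.6% of the level of cKO 2, cKO 1 held 11.5%, cKO 3 held 3.52% and control 2 held 0.226%. At the estimated depth these levels correspond to about 3693 fragments in cKO 2 and about 11 in control 2, so the value in control 2 is the least precise. In whole tissue, more cells of a type and more RNA per cell cannot be told apart, here or below. The gene (ENSMUSG00000061808.3) occupies bases 20823751 to 20832825 of chromosome 18 on the forward strand and has a single annotated transcript, and 11 of its 1219 exonic nt overlap *Gm16090* on the opposite strand.

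The other 9 genes are protein coding in GENCODE vM1 on mm9. *Kl* (chr5:151755182-151796384), *Clic6* (chr16:92485981-92541488) and *Prlr* (chr15:10106993-10303504) are on the forward strand, as are *Calml4* (chr9:62705911-62723725), *Slc4a5* (chr6:83169822-83254939) and *Aqp1* (chr6:55286426-55298549). *Folr1* (chr7:109006845-109019302), *Kcnj13* (chr1:89282938-89291304) and *Otx2* (chr14:49277354-49287319) are on the reverse strand. *Slc4a5* and *Aqp1* share a chromosome.

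**Figure D1:**
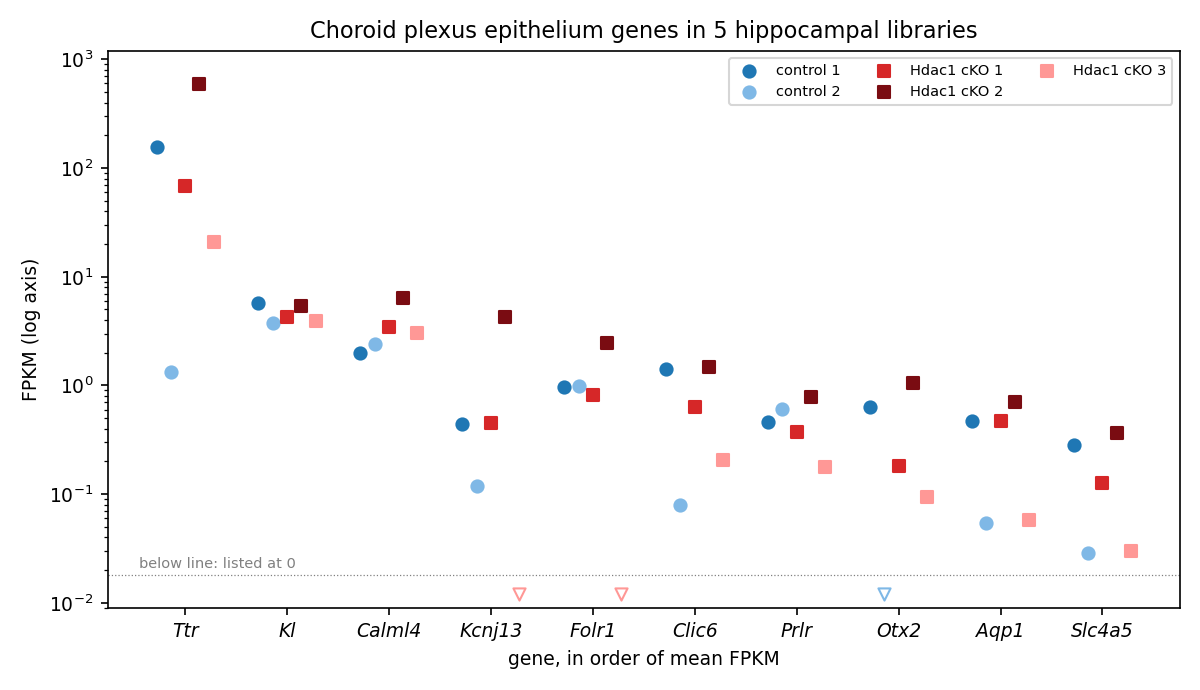
FPKM of the 10 genes on a log axis, with 1 point per library (circles for control, squares for *Hdac1* cKO, open triangles for values listed at 0). *Ttr* spans 1.33 to 589 FPKM, while *Kl* stays between 3.77 and 5.71 FPKM.

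The genes that held the order of *Ttr* were *Clic6*, *Slc4a5*, *Otx2* and *Aqp1*. They encode a protein of the chloride intracellular channel family, a sodium bicarbonate cotransporter of the apical membrane, a homeodomain transcription factor needed to form the choroid plexus, and the water channel of the apical membrane. In these 4 of 9 genes all 5 libraries fell in the same order as for *Ttr* by FPKM. For *Slc4a5* and *Aqp1* the step from cKO 3 to control 2 rests on about 1 fragment in each library. The count of 4 thus includes genes whose full order is not resolved. The order was found in 0.615% of the 15764 genes whose mean over libraries reached 0.1 FPKM. Leaving out 1 library at a time, 4 to 6 of the 9 genes held the order, where 2.83% to 4.15% of all genes did. Without cKO 2, the library with the most *Ttr*, it was 5 of 9 against 4.04%.

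FPKM values of *Clic6* were 1.42 and 0.0789 in control 1 and 2 and 0.634, 1.47 and 0.208 in cKO 1 to 3. Control 1 and cKO 2 were nearly level and the lowest library, control 2, held 5.35% of cKO 2. With about 2 to 36 fragments per library *Clic6* had the most fragments of the 4 genes.

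FPKM values of *Slc4a5* were 0.281 and 0.0285 in control 1 and 2 and 0.126, 0.367 and 0.0300 in cKO 1 to 3. The values in control 2 and cKO 3 correspond to about 1 fragment each, so their order is not resolved, while control 1 and cKO 2 stood at about 10 fragments. *Otx2* was at 0.630 FPKM in control 1, was listed at 0 in control 2, and was at 0.181, 1.05 and 0.0951 FPKM in the cKO libraries. It was highest in cKO 2, with about 12 fragments, and next in control 1, with about 10. FPKM values of *Aqp1* were 0.475 and 0.0544 in control 1 and 2 and 0.470, 0.701 and 0.0573 in cKO 1 to 3. Its libraries fell into a high group (control 1, cKO 1 and cKO 2, about 8 to 10 fragments each) and a low one (control 2 and cKO 3, about 1 fragment each), and within neither group is the order resolved. For all 4 genes both groups overlapped.

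These 4 genes followed *Ttr* in order but not in size. The ratio of cKO 2 to control 1 was 3.76 for *Ttr*, against 1.04 for *Clic6*, 1.31 for *Slc4a5*, 1.66 for *Otx2* and 1.47 for *Aqp1*. Per 1000 FPKM of *Ttr*, *Clic6* stood at 9.06 FPKM in control 1, 9.34 in cKO 1 and 10.03 in cKO 3, and at 2.5 in cKO 2. The ratio of *Clic6* to *Ttr* thus lay close together in the first 3 of these libraries and was lower in cKO 2. For *Slc4a5* the ratios were 1.79, 1.85 and 1.45 FPKM per 1000 of *Ttr* in control 1, cKO 1 and cKO 3 and 0.623 in cKO 2. The ratios of the other two genes were more scattered. For *Otx2* they were 4.02, 2.67 and 4.59 in control 1, cKO 1 and cKO 3, and 1.78 in cKO 2. For *Aqp1* they were 3.03, 6.93 and 2.76, and 1.19 in cKO 2. All 4 genes had a lower ratio in cKO 2 than in these 3 libraries. In control 2 the ratio was 59.4 for *Clic6*, 21.4 for *Slc4a5* and 40.9 for *Aqp1*, where each rested on about 1 or 2 fragments, and 0 for *Otx2*. A line of *Clic6* on *Ttr* through all 5 libraries met the axis at 53.7% ± 34.9 (SE) of the mean of *Clic6*, and at 8.02% ± 2.55 without cKO 2. The same intercept was 44.8% ± 28.3 for *Slc4a5*, 54.6% ± 30.6 for *Aqp1* and 27.2% ± 24.3 for *Otx2*. Without cKO 2 these were 9.62% ± 9.80, 31.1% ± 42.2 and −8.01% ± 18.4. Over 5 libraries all 4 intercepts lay within 2 SE of 0. Without cKO 2 that of *Clic6* was more than 2 SE above 0 and the other three were not.

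**Figure D2:**
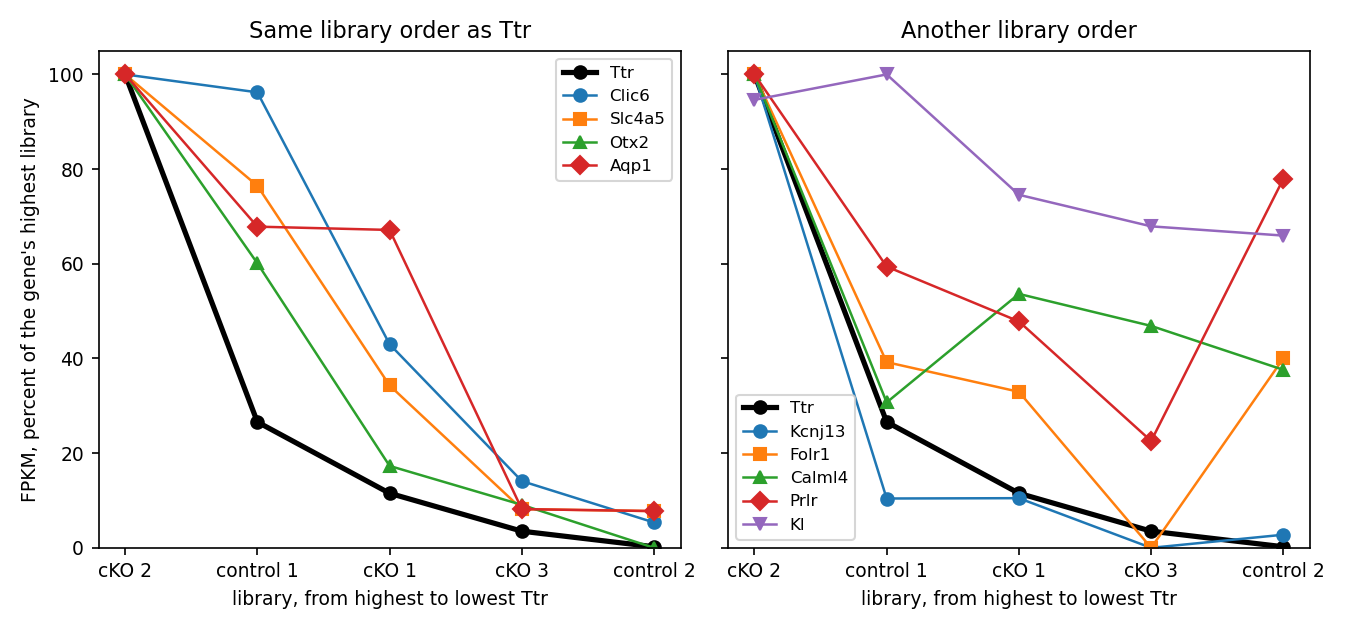
FPKM of each gene as a percent of its own highest library, with the libraries on the horizontal axis in order of *Ttr*, which is the black line in both panels. *Clic6*, *Slc4a5*, *Otx2* and *Aqp1* descend to between 0 and 7.76% in control 2, while *Kl* and *Prlr* are at 66.0% and 78.0% there.

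*Kcnj13* and *Folr1* shared the high library with *Ttr* but not the full order. *Kcnj13* encodes Kir7.1, an inwardly rectifying potassium channel of the apical membrane. FPKM values of *Kcnj13* were 0.446 and 0.119 in control 1 and 2 and 0.449 and 4.28 in cKO 1 and 2, and it was listed at 0 in cKO 3. Its ratio of cKO 2 to control 1, 9.60, was the highest of the 10 genes and rested on about 28 and about 4 fragments. Of its 1270 exonic nt, 623 overlap exons of *Gigyf2* on the opposite strand, and whether counting used strand is not stated. *Gigyf2* was at 25.1 to 28.0 FPKM in all libraries, with no peak in cKO 2 like that of *Kcnj13*. The intercept of *Kcnj13* on *Ttr* was −15.7% ± 19.3 (SE) of its mean, and 35.7% ± 47.9 without cKO 2, both within 2 SE of 0.

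*Folr1* encodes folate receptor alpha, which brings folate from blood to the cerebrospinal fluid. FPKM values of *Folr1* were 0.965 and 0.984 in control 1 and 2 and 0.810 and 2.46 in cKO 1 and 2, and it was listed at 0 in cKO 3. Control 2, with almost no *Ttr*, stood level with control 1 at about 9 fragments each. The zero fell in cKO 3, which had more *Ttr* than control 2, so *Folr1* was not ordered by *Ttr* below cKO 2. The line of *Folr1* on *Ttr* met the axis at 47.0% ± 23.4 (SE) of its mean. It met it at 76.8% ± 54.8 without cKO 2 and at 24.9% ± 21.0 without control 2. With so few libraries none of these intercepts was tested against 0.

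*Kl*, *Calml4* and *Prlr*, like *Folr1*, kept a level in control 2, the library with least *Ttr*. *Kl* encodes klotho, a co-receptor for fibroblast growth factors. FPKM values of *Kl* were 5.71 and 3.77 in control 1 and 2 and 4.26, 5.40 and 3.88 in cKO 1 to 3. Across the 443-fold range of *Ttr* it varied 1.52-fold, and control 2 held 69.7% of the level of cKO 2. Its 2 highest libraries were nevertheless those with the most *Ttr*, and its order differed from that of *Ttr* only in these 2, control 1 being above cKO 2. At about 125 to 195 fragments per library *Kl* was measured on more fragments than any of the other 8 genes. The line on *Ttr* met the axis at 4.18 FPKM, 90.7% ± 9.13 (SE) of its mean, and at 82.2% ± 3.20 without cKO 2.

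*Calml4* encodes a calmodulin-like protein of microvilli. FPKM values of *Calml4* were 1.97 and 2.41 in control 1 and 2 and 3.44, 6.42 and 3.01 in cKO 1 to 3. It was highest in cKO 2, with 6.42 FPKM, but lowest in control 1, which has the second highest *Ttr*. The line met the axis at 69.2% ± 15.5 (SE) of its mean, and at 109% ± 18.8 without cKO 2, where its slope on *Ttr* was negative. *Prlr* encodes the prolactin receptor. FPKM values of *Prlr* were 0.466 and 0.611 in control 1 and 2 and 0.375, 0.784 and 0.177 in cKO 1 to 3. Control 2 was its second highest library and held 78.0% of the level of cKO 2. Its intercept was 76.4% ± 21.6 (SE) of the mean, 97.4% ± 39.1 without cKO 2 and 57.0% ± 14.1 without control 2. *Prlr* shares 155 of its 15494 exonic nt with *Agxt2*, which was listed at 0 in all 5 libraries.

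The share of the highest library that is left in control 2 orders the members. It was 0 for *Otx2*, 2.77% for *Kcnj13*, 5.35% for *Clic6*, 7.76% for *Slc4a5* and 7.76% for *Aqp1*. With about 0 to 2 fragments in control 2, the order among these 5 genes is not resolved. *Calml4* (37.6%) and *Folr1* (40.0%) come next, and then *Kl* (66.0%) and *Prlr* (78.0%). The share of *Ttr* itself was 0.226%.

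The level of *Ttr* was compared with all other genes by the SD over 5 libraries of the log2 ratio to *Ttr*, which is 0 for a gene in constant proportion. *Clic6* had an SD of 1.63, *Slc4a5* of 1.91 and *Aqp1* of 1.93. *Calml4* had 3.03, *Kl* 3.10 and *Prlr* 3.27. A gene that does not vary at all would have 3.33, the SD of log2 *Ttr* itself. These SDs depended on control 2, the library with least *Ttr*. Without it they were 0.96 for *Clic6*, 0.74 for *Slc4a5*, 1.04 for *Aqp1*, 1.16 for *Prlr*, 1.77 for *Calml4* and 1.81 for *Kl*, where a gene that does not vary would have 2.03. *Prlr* then lay beside *Aqp1*, while *Kl* and *Calml4* were nearer to the value of a gene that does not vary. *Folr1*, *Kcnj13* and *Otx2* hold a zero and have no such value. Among 12717 genes that averaged 1 FPKM or more and held no zero, the named genes most like *Ttr* were *Isg15* (2.27), *Dnajb3* (2.5), *BC028528* (2.51), *Airn* (2.52), *Sostdc1* (2.52), *Rnase1* (2.64), *Gins1* (2.69), *Hist1h3g* (2.74), *Ccl17* (2.76) and *Mnd1* (2.80). *Sostdc1*, a secreted inhibitor of BMP and Wnt signals, is the only one of these named genes that is on the lists of choroid plexus genes used here. *Sostdc1*, *Gins1* and *Mnd1* reached the mean of 1 FPKM only through cKO 2, so the filter itself favoured them. *Isg15*, *BC028528*, *Airn* and *Sostdc1* were not highest in cKO 2, and the other named genes were. 1500015O10Rik, a gene of the further list below, was left out of this naming by its symbol. From its FPKM values it would stand among these genes. *Calml4* ranked 114 and *Kl* 215 of these 12717 genes. The median SD of these genes was 3.35, so such ranks go with SDs little below that of a gene that does not vary. *Clic6*, *Slc4a5* and *Aqp1* lie under the minimum of 1 FPKM.

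A further list of 24 genes known for the choroid plexus was described in the same way. It too was chosen with earlier results of these data known, so its counts are a description and not an independent check. The full library order of *Ttr* was held by 1 of the 24, *Col8a2*, and by 2 to 11 of them when 1 library was left out. A looser pattern, itself taken from the order of *Ttr*, was more frequent. Of the 24 genes, 22 had a mean of at least 0.1 FPKM, and in 18 of the 22 both cKO 2 and control 1 were above control 2 and cKO 3. The same held for 6 of the 9 members (*Kl*, *Clic6*, *Kcnj13*, *Slc4a5*, *Otx2* and *Aqp1*) and for 12.4% of all genes above that minimum. The highest library was cKO 2 in 17 of the 22 genes and in 8 of the 9 members, against 26.0% of all genes. All 9 members reached that minimum without cKO 2 as well, and of the list *Tmem72* did not. At higher minimums the filter itself favours genes high in cKO 2, since *Kcnj13*, *Otx2* and *Aqp1* reached 0.3 FPKM only through that library, and no counts are given there.

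The most abundant of these genes was 1500015O10Rik, whose FPKM values were 6.63 and 1.74 in control 1 and 2 and 2.26, 11.7 and 4.89 in cKO 1 to 3. It was highest in cKO 2 and lowest in control 2. FPKM values of *Slc13a4*, a sulfate transporter, were 2.0 and 1.04 in control 1 and 2 and 2.38, 2.01 and 2.51 in cKO 1 to 3. It was lowest in control 2 too but did not peak in cKO 2. *Msx1* (1.34 to 3.14 FPKM), *Stra6* (1.07 to 1.82 FPKM) and *Rdh5* (0.641 to 1.32 FPKM), a homeobox gene and 2 genes of vitamin A handling, varied less than 3-fold. FPKM values of *Sostdc1* were 1.48 and 0.355 in control 1 and 2 and 1.26, 1.37 and 0.748 in cKO 1 to 3, so control 1 and cKO 2 were again nearly level.

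Other genes of the list resembled *Kcnj13*. *Kcne2*, a potassium channel subunit, was at 0.288 FPKM in control 1, at 0.678 and 2.85 FPKM in cKO 1 and cKO 2, and was listed at 0 in control 2 and cKO 3. *Steap1* and *Wfdc2* had the same 2 zeros, with 1.55 and 1.32 FPKM in cKO 2. For these 3 genes the ratio of cKO 2 to control 1 was 9.88, 5.47 and 4.99, above the 3.76 of *Ttr*. *F5* (1.28) and *Col8a2* (1.21), with 0.553 and 0.743 FPKM in cKO 2, were closer to *Clic6*. The choice of these 5 was made with their values in view. Differences between such ratios were not tested, since each rests on 1 library a side and on few fragments.

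A list of 12 genes that the choroid plexus shares with other brain cells varied much less. Its summed level was 143 to 214 FPKM, against 9.80 to 34 FPKM for the 24 genes above, so that the highest library exceeded the lowest 1.5-fold and 3.47-fold, respectively. FPKM values of *Enpp2*, which encodes autotaxin and is also used by oligodendrocytes, were 54.4 and 44.0 in control 1 and 2 and 43.0, 78.4 and 52.6 in cKO 1 to 3. It was highest in cKO 2. *Igfbp2* (18.6 to 39.3 FPKM), *Trpm3* (16.4 to 21.7 FPKM), *Cab39l* (13.1 to 18.5 FPKM), *Slc12a2* (9.99 to 12.1 FPKM) and *Htr2c* (8.79 to 14.0 FPKM) varied far less than *Ttr* did.

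Summed levels of marker lists for neighbouring tissue and for blood varied 1.29- to 1.80-fold between libraries. The ciliated ependymal cells line the same ventricle. Of their 8 listed genes 0 peaked in cKO 2 and 5 were lowest there, against 20.5% of all genes lowest in that library, and their summed level was 36.6 FPKM in cKO 2 and 39.7 to 55.4 FPKM in the others. The sum of 10 leptomeningeal fibroblast genes was 65.9 FPKM in cKO 2 and 49.5 to 62.9 FPKM in the others. *Dcn*, a matrix proteoglycan, was its most abundant gene, with 28.9 to 45.8 FPKM, and was highest in cKO 2. Without *Dcn* the sum was not highest in cKO 2. Of the 10 genes 2 were highest in cKO 2 and 2 were lowest there. The sum of 8 endothelial genes was 74.4 FPKM in cKO 2 and 73.6 to 98.2 FPKM in the others. The 5 red blood cell genes summed to 104 FPKM in control 1 and 97.4 FPKM in cKO 2, and to 57.6 to 71.1 FPKM in the other libraries, so their 2 highest libraries were also those with the most *Ttr*. The near-identical *Hba-a1* and *Hba-a2* can share reads and are uncertain singly, and *Hbb-b1* alone was at 47.8 FPKM in control 1, 37.5 FPKM in cKO 2 and 23.8 to 31.9 FPKM in the others. The summed level of 9 thalamus and habenula genes was 19.6 to 25.3 FPKM, highest in cKO 3. Of the habenula genes among them, *Tac2* was at 1.89 to 5.11 FPKM and *Gpr151* at 0.371 to 1.21 FPKM, both highest in cKO 3, and *Chrna3* and *Chrnb4* did not exceed 0.110 FPKM. The hippocampal neuron genes went the other way. Of 8 genes 6 were lowest in cKO 2, and their sum was 1749 FPKM there and 1990 to 2110 FPKM in the other libraries. The 8 astrocyte genes summed to 2674 and 2698 FPKM in the controls and to 2913, 2967 and 3077 FPKM in cKO 1, 2 and 3. The part of any of these tissues in the levels of the members was not tested.

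**Figure D3:**
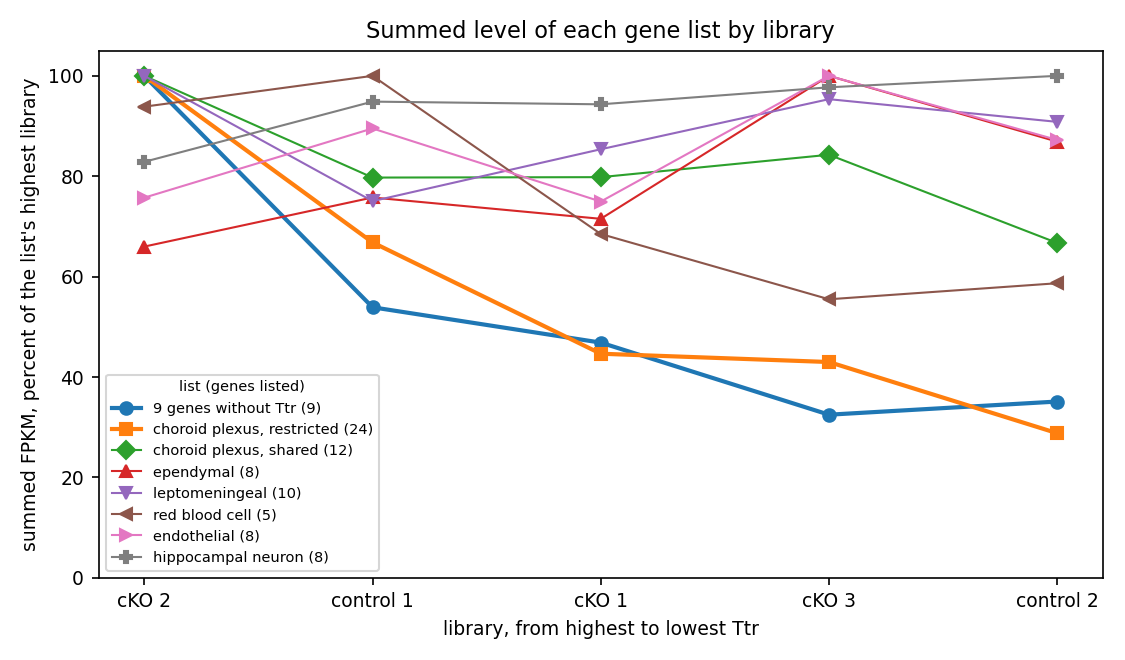
Summed FPKM of each gene list as a percent of its highest library, with the libraries in order of *Ttr*. The 9 members without *Ttr* and the 24 further choroid plexus genes are highest in cKO 2 and next highest in control 1, while the ependymal and neuronal lists are lowest in cKO 2.

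The genotype comparison asks whether the transcripts differ in *Hdac1* cKO hippocampus at 3 months. Of the 10 genes, 5 (*Ttr*, *Kl*, *Calml4*, *Kcnj13* and *Folr1*) averaged 1 FPKM or more and were tested with limma on log2(FPKM + 1). *Kcnj13* and *Folr1* reached that mean only through cKO 2. None of the 5 passed an adjusted p of 0.05, with adjusted limma p-values of 0.955 to 0.989, and 1 had an unadjusted p under 0.05, as did 555 of all tested genes. In all, 0.00785% of the 12740 tested genes passed the adjusted p, so little could be called in this design.

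*Ttr* had a mean of 79.0 ± 110 FPKM in the controls (SD, n = 2) and 226 ± 315 FPKM in *Hdac1* cKO (SD, n = 3). The SD exceeded the mean in both groups. On the log2 scale the groups differed by 2.32 (SE 1.76, adjusted p = 0.955 by limma), with a 95% interval from −1.73 to 6.38. Without control 2 it was −0.72, and without control 1 it was 5.36, so its direction rested on the controls. The difference was −1.19 inside the first set of libraries and 5.60 inside the second, with no p-value for either.

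*Calml4* was the 1 member whose groups did not overlap. All cKO libraries lay above both controls, as listed above, where 20.4% of all tested genes had groups that did not overlap in 1 direction or the other. The means were 2.19 ± 0.312 FPKM in the controls (SD, n = 2) and 4.29 ± 1.86 FPKM in *Hdac1* cKO (SD, n = 3). On the log2 scale the groups differed by 0.68 (SE 0.25, adjusted p = 0.955 by limma), with a 95% interval from 0.0931 to 1.26. *Calml4* was thus 1 of 5 tested members past the fold of 1.5 and unadjusted p of 0.05 that the study used as its threshold, which 0.659% of all tested genes passed. The difference was 0.58 inside the first set and 0.68 inside the second. Without cKO 2 it was 0.41, under a fold of 1.5, and the other 2 cKO libraries were still above both controls.

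*Kl* had means of 4.74 ± 1.37 FPKM in the controls (SD, n = 2) and 4.51 ± 0.794 FPKM in *Hdac1* cKO (SD, n = 3), a log2 fold change of −0.05 with a 95% interval from −0.48 to 0.38. The interval bounds a change of *Kl* in this comparison far more closely than one of *Ttr*. Within the sets the difference was −0.35 and 0.23, the direction of *Ttr* in each. For *Kcnj13* the log2 fold change was 0.63 (95% interval −0.75 to 2.01) and for *Folr1* −0.10 (−1.10 to 0.90), and without cKO 2 that of *Kcnj13* was −0.08. The 5 genes under 1 FPKM (*Clic6*, *Prlr*, *Slc4a5*, *Otx2* and *Aqp1*) were not tested. In a fit of all 23361 genes their log2 differences were −0.11 to 0.15 and the smallest unadjusted limma p was 0.628.

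**Figure D4:**
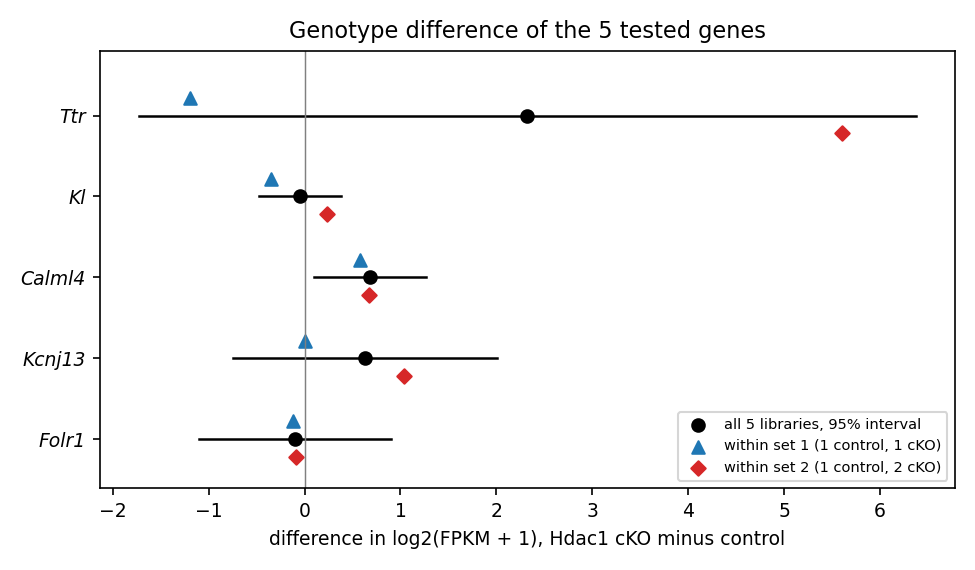
Difference in log2(FPKM + 1) between *Hdac1* cKO and control for the 5 tested genes, with points and 95% intervals from limma over 5 libraries and the differences within each set of libraries. For *Ttr* the sets gave −1.19 and 5.60, and for *Calml4* 0.58 and 0.68.

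The other choroid plexus genes gave no adjusted call either. Of the 24 genes of the first list 6 were tested, 4 with a positive and 2 with a negative difference. Their median was 0.21, where the median of all tested genes was 0.01. *Sostdc1* (0.20) and *Rdh5* (0.22) reached the mean of 1 FPKM only through cKO 2, so this tally and median depend on that library. The other 4 were 1500015O10Rik (0.45), *Slc13a4* (0.41), *Stra6* (−0.14) and *Msx1* (−0.28). None of the 6 had an unadjusted p under 0.05. Of the 12 shared genes, all were tested, 9 with a positive and 3 with a negative difference and a median of 0.08. *Igf2* and *Igfbp2*, a growth factor and a binding protein of its family, had log2 fold changes of 0.96 and 0.47, each with an unadjusted limma p under 0.05. Of the 12740 tested genes 555 had such a p, and the adjusted limma p was 0.955 for both genes. Unlike *Ttr*, *Igf2* was highest in cKO 3 and *Igfbp2* in cKO 1.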

How the data were processed

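RNA-seq libraries were made by the authors from total RNA of hippocampal tissue (Illumina TruSeq Total RNA kit). Reads were collapsed, aligned with TopHat and quantified with Cufflinks 2.0.0 on the mm9 annotation. Whether strand was used is not stated. The deposited values are FPKM per gene symbol, 1 file per library, and no read totals are given in these files. Groups and replicate numbers came from the sample titles. The gene members and lists were chosen with earlier results of these data known.

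The 12740 genes that averaged 1 FPKM or more were tested with limma 3.58.1 in R 4.3.3 on log2(FPKM + 1), with a mean-variance trend, genotype as the only term and two-sided p-values adjusted by Benjamini-Hochberg over all tested genes. Fold changes on that scale understate the change of low genes. The procedure was tested on simulated data. Variation with *Ttr* was described without a test or a correlation coefficient. Intercepts on *Ttr* are from least-squares lines, with their standard errors. Distances in SE describe these lines and are not tests.

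Depth was estimated from steps in low values: in single-transcript genes of at least 1 kb, the most common FPKM times length was read as 1 fragment. Fragments of a member are its FPKM times its longest GENCODE vM1 transcript times that depth, and are approximate. Libraries that shared over 10% of low genes (mean under 0.3 FPKM) inside a ratio window of 0.05 log2 units form a set. Promoters were read from RefSeq (GRCm38.p6). Named genes were the members, *Hdac1*, the 6 most abundant genes of each further choroid plexus list, the 10 most like *Ttr* (microRNA, snoRNA and predicted symbols left out) and leading genes of the neighbouring lists, of which *Mia1* and *Dnahc12* are not listed under those symbols. A result on 1 gene of the shared list is not reported here. Other names were chosen after their values were seen. Alternatives were a pseudocount of 0.1, no filter or a minimum of 5 FPKM, 2 rescalings, the replicate number or the set as a block, and leaving out each library.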

Additional observations from a re-analysis of the deposited data

How the results depend on the processing

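No member passed the adjusted p under any alternative run. The count of members past a fold of 1.5 and an unadjusted p of 0.05 was 1 (*Calml4*) and became 0 without a filter, 0 with a minimum of 5 FPKM, where *Calml4* is not tested, and 0 to 1 when 1 library was left out, the 0 being without cKO 2. Between 4 and 6 of 9 genes held the library order of *Ttr* when 1 library was left out, an alternative chosen after seeing the data. Direction changed for 4 of the 5 tested genes. *Ttr* went from −0.72 (without control 2) to 5.36, *Kl* from −0.29 to 0.20, *Folr1* from −0.55 to 0.34 and *Kcnj13* from −0.079 (without cKO 2) to 1.12 when 1 library was left out. With the replicate block *Kl* was at 0.037 and *Folr1* at 0.34, and *Calml4* was at 0.85 with an adjusted limma p of 0.259. The replicate numbers are shared in the titles only. Same-numbered libraries deviated from their group means together with r = 0.402 and 0.269 across 12740 genes, which are not independent. The deviations of 2 controls mirror each other, so these values are not separate observations. Control 1 and cKO 1 are also the first set, and control 2 and cKO 2 lie in the second. Replicate number and set therefore cannot be told apart here. Rescaling to a common total changed the all-gene median from 0.01 to −0.04 and changed no direction among the 5 genes. Genes under 1 FPKM rest on few fragments, which limits every order among their low libraries.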
